A study of Homo sapiens with 16 samples.

Results

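Cytoplasmic RNA of HepG2 cells given siRNAs to PANAD (C7orf25) was compared with cytoplasmic RNA of HepG2 cells given the NC transfection that served as the control. The comparison holds 4 of the 16 libraries of the series, 2 siPANAD and 2 NC, chosen by the labelled line, fraction and siRNA. HepG2 is an established human liver cancer line, labelled as hepatocellular carcinoma cells, and was grown here without the other cell types of a liver. The siPANAD cells received siPANAD-1 and siPANAD-2 together for 48 h, so the siRNAs cannot be told apart, and the NC cells received NC for the same time. The series' title ties PANAD to the export receptor NXF1, to nuclear export of CDK6 mRNA and to entry into S phase. The HepG2 nucleus (2 siPANAD and 2 NC libraries) and the cytoplasm of SNU-449, another liver cancer line transfected in the same way (2 siPANAD and 2 NC libraries), were used to show where the HepG2 cytoplasm differed.

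An mRNA made in the nucleus is packaged with adaptor proteins and carried through the nuclear pore by NXF1 and its partner NXT1. The cytoplasmic pool then depends on synthesis, export and decay, and it is the pool open to the ribosome. In hepatocyte-like cells much of that pool codes for secreted plasma proteins, for enzymes of lipid, amino acid and drug metabolism, and for the ribosome itself.

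The siPANAD libraries held 16901400 and 17294700 counts and the NC libraries 17727305 and 30321908. Levels are given as CPM, counts per 1000000 counts. A count of 0 allows a level of up to 3 counts, or 0.178 and 0.173 CPM with siPANAD, against 0.169 and 0.0989 CPM in NC, for counting error only. The NC pair stood further apart than the siPANAD pair: 143 of 13453 genes (1.06%) differed by at least 1 on the log2 scale between the siPANAD replicates, and 277 (2.06%) between the NC replicates. By markers the libraries were hepatocyte-like and cytoplasmic. All 11 hepatocyte markers were detected, while PTPRC, CD3E, CD68, CFTR, PDGFRA, LRAT, DCN and LUM were below 1 CPM in all 4 libraries. MALAT1, an RNA held in the nucleus, was at 4.20 and 3.99 CPM with siPANAD and 5.30 and 5.84 CPM in NC, against 370 to 396 CPM in the HepG2 nuclear libraries. Whether the counting used strand is not given in the sources used here, so genes with over 30% of their exonic bases shared with or opposite another gene are uncertain. Among the genes named below these are DDX39B, EIF3L, SERPINA3, CFB, ACAT2, UGT1A1, DDIT3, DUSP6 and IER2, besides those where a share is given. The knockdown could not be checked, because C7orf25 had 0 and 0 counts with siPANAD, and 0 and 1 in NC. C7orf25 also shares over 30% of its exonic bases with another gene of its strand, so these counts are uncertain.

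With TMM scaling, which takes most genes as unchanged, nearly as many genes rose as fell in the HepG2 cytoplasm. Cholesterol enzymes, ribosomal protein genes and interferon-stimulated genes were mostly among the rises or the genes not called, and growth factor, ATF4 and ER folding genes mostly among the falls. Of 17499 genes tested, 8390 changed (47.9%) in edgeR's quasi-likelihood test at a Benjamini-Hochberg adjusted p below 0.05. There were 4149 genes higher with siPANAD (23.7%) and 4241 lower (24.2%), and the median log2 fold change of all genes tested was -0.004. These shares are the background for the counts of each gene list below. Scaled to library totals alone, 3491 genes were higher and 5038 lower (40.9% of calls higher), with a median of -0.12. Of the 11119 genes with a mean of at least 5 CPM in a group 26.7% rose and 32.8% fell. A change of at least 1 on the log2 scale, 2-fold, was passed by 3562 genes (20.4%), 2020 of them higher (11.5%) and 1542 lower (8.81%). With only 2 libraries a side, p-values rest on the spread between replicates, estimated from the HepG2 cytoplasm and nucleus libraries together. All of these libraries share 1 cell line. When the cytoplasm libraries were fitted alone, 7780 genes passed, 3827 higher and 3953 lower. In bulk RNA, fewer cells with a transcript and less transcript per cell cannot be told apart.

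**Figure D1:**
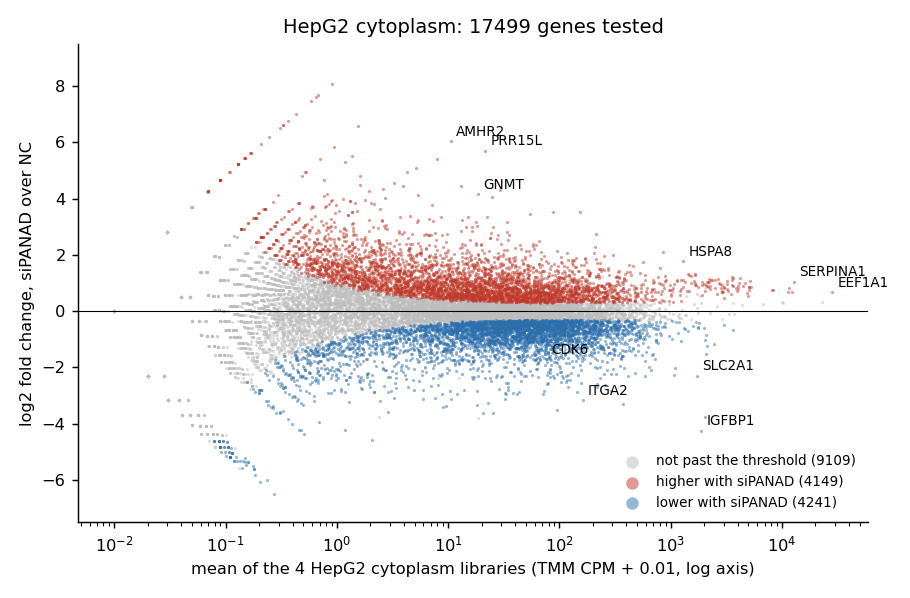
Every gene tested in the HepG2 cytoplasm, with the mean TMM-normalised CPM of the 4 libraries on a log axis (0.01 added) and the log2 fold change of siPANAD over NC on the other axis. Red points are the 4149 genes higher with siPANAD, blue points the 4241 lower and grey points the genes not past an adjusted p of 0.05. Genes lower at high abundance include IGFBP1 and SLC2A1, and EEF1A1, SERPINA1 and HSPA8 are labelled among the abundant genes that were higher.

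The large falls included those of glucose transporters and of an integrin chain. The facilitative glucose transporter SLC2A1 was at 599.7 and 568 CPM with siPANAD, against 3419.9 and 2325 CPM in NC (log2 fold change -2.298, SE 0.16; adjusted p = 2.1e-11). Its relative SLC2A3 was at 66.5 and 70.1 CPM with siPANAD, against 657 and 701 CPM in NC (log2 fold change -3.31, SE 0.14; adjusted p = 3.1e-15). In both genes every siPANAD library lay below every NC library, but groups that do not overlap were common, at 71.7% of all genes tested. ITGA2, the alpha chain of a collagen-binding integrin, was at 33.3 and 31.8 CPM with siPANAD, against 299 and 283 CPM in NC (-3.16), and TNS4, an adaptor of integrin adhesions, at 3.36 and 3.14 CPM with siPANAD, against 39.8 and 25.98 CPM in NC (-3.32). PLAC8 (-3.27), MAB21L3 (-3.63, or -4.32 without siPANAD replicate 2) and CCDC201 (-3.59) were also among the 12 deepest falls of genes of at least 5 CPM, as were IGFBP1, INHBB, CEMIP, HAS3 and PDGFRB described with their families below. The 10 largest losses in CPM with a log2 change of at least 1 included IGFBP1, SLC2A1, CALR, FN1 (fibronectin, -1.18), APOB, TRIB3, CLIC1 (-1.04) and GDF15.

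The steepest rises came from genes of low level in NC cells. PDZK1IP1, a small membrane protein of epithelia, was at 15.4 and 15.99 CPM with siPANAD, against 0.217 and 0.444 CPM in NC (log2 fold change 5.42, SE 0.29; adjusted p = 1.3e-13; 6.13 without NC replicate 2). Its NC libraries held 3 and 11 counts, and the ratio of summed counts, siPANAD over NC per scaled total, was 43.3, with an exact 95% interval of 25.5 to 79.9 that covers counting error only. TUBA4B, annotated as a tubulin alpha gene, was at 56.4 and 55.7 CPM with siPANAD, against 2.82 and 2.87 CPM in NC (log2 fold change 4.29, SE 0.17; adjusted p = 1.4e-15). TRIM50, a ubiquitin ligase of the tripartite motif family, was at 50.4 and 43.3 CPM with siPANAD, against 2.96 and 2.75 CPM in NC (log2 fold change 4.04, SE 0.17; adjusted p = 2.6e-15). In each the siPANAD libraries lay above both NC libraries and close to each other. ERP27, a protein of the endoplasmic reticulum, was at 27.03 and 23.2 CPM with siPANAD, against 1.23 and 1.09 CPM in NC (4.45), and ACSM2A, a mitochondrial acyl-CoA ligase, at 11.9 and 14.9 CPM with siPANAD, against 0.9399 and 1.01 CPM in NC (3.76). AMHR2, PRR15L (5.71), GNMT, glycine N-methyltransferase (4.16), ITIH1 and PPP1R14D (4.96) were also among the 12 steepest, as were CAPN3 (5.099, or 4.51 without NC replicate 2), which shares 57.1% of its exonic bases with other genes of its strand, and CYP17A1 (4.02), with 41.1% of its exonic bases opposite another gene. The 10 largest gains in CPM with a log2 change of at least 1 were SERPINA1, the antitrypsin of plasma, the ferritin heavy chain FTH1, and 8 ribosomal protein genes.

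CDK6, the G1 kinase that pairs with D-type cyclins, fell, and fell further in the cytoplasm than in the nucleus. The gene lies on chromosome 7, 92604921 to 92836594, minus strand of GRCh38. It was at 36.1 and 35.1 CPM with siPANAD, against 113 and 119 CPM in NC, with no overlap between the groups (log2 fold change -1.71, SE 0.13; adjusted p = 3.8e-11). The cytoplasmic minus nuclear effect was -1.15 (SE 0.17; edgeR adjusted p = 1.3e-04), and the nuclear effect itself was -0.56. NXF1 was at 37.1 and 38.7 CPM with siPANAD, against 45.8 and 40.97 CPM in NC and did not pass the test (log2 fold change -0.19, SE 0.13; adjusted p = 0.247), while its partner NXT1 fell (log2 fold change -0.86, SE 0.13; adjusted p = 4.4e-06). Of 24 mRNA export genes 11 fell and 2 rose (ENY2 and PCID2), with a median of -0.31. Without siPANAD replicate 1, siPANAD replicate 2 or NC replicate 1, 0 export genes were higher. Those that fell included the pore helicase DDX19A (-1.74), the adaptor helicase DDX39B (-1.03), MCM3AP, the scaffold of the TREX-2 complex (-0.902), and GLE1, which acts on the pore helicase (-0.79).

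Around CDK6, the genes of the G1/S transition leaned lower. Of 29 tested, 13 fell and 4 rose (2 without siPANAD replicate 1), with a median of -0.33. CCND2, a D-type cyclin, was at 1.52 and 0.941 CPM with siPANAD, against 2.96 and 3.596 CPM in NC (-1.43), and CCNA2, the cyclin of S phase, at 56.2 and 65.8 CPM with siPANAD, against 93.6 and 90.8 CPM in NC (-0.59). The transcription factors E2F3 (-1.15), E2F4 (-0.81) and E2F1 (-0.55) and the pocket protein RBL2 (-1.07) fell. So did the kinase inhibitors CDKN2A (-1.06) and CDKN1B (-0.58), whereas the CDK4 and CDK6 inhibitor CDKN2C rose (1.04). The phosphatase CDC25A rose by 0.61, or by 0.36 without NC replicate 1 and 0.94 without NC replicate 2. CCND1 (0.03), CDK2 (-0.11) and CCNE1 (0.21) did not pass.

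CDK6 belonged to a larger set of genes that fell by more in the cytoplasm than in the nucleus. Among the 11119 genes of at least 5 CPM, 594 fell in the cytoplasm and also passed the test of a lower cytoplasmic than nuclear effect, and in 154 of these the difference was at least 1 on the log2 scale, a size that 1.52% of all genes reached in that direction and 1.75% in the other. CDK6 stood at place 86 of the 154 by size. The 594 became 297 without nuclear siPANAD replicate 2, 389 without nuclear siPANAD replicate 1, 390 without nuclear NC replicate 1 and 391 without cytoplasmic siPANAD replicate 1, while the 154 ranged between 130 and 216 as single libraries were left out, with CDK6 among them each time. Among the 6 largest were SHH, the hedgehog ligand (cytoplasm -1.75, nucleus 0.44), ZFTA (-0.604 and 1.300), PRELID3A (-1.12 and 0.62), the growth factor receptor FGFR3 (-1.32 and 0.41) and MOB3C (-1.399 and 0.304). FGFR3 was at 125 and 146 CPM with siPANAD, against 347 and 332 CPM in NC in the cytoplasm, where its groups did not overlap.

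Most of these genes also fell in the cytoplasm of the other line, whose libraries are separate from those of HepG2. Of the 154 genes, 120 also fell in the SNU-449 cytoplasm (77.9%) and 2 rose, against 2763 of the 11119 genes of this abundance (24.8%; of all genes tested 30.4% were called there, 13% higher and 17.4% lower), with a median SNU-449 log2 fold change of -0.94. For 742 genes that fell by at least 1 in the HepG2 cytoplasm with no called difference from the nucleus, 421 fell in SNU-449 (56.7%, median -0.54). The HepG2 falls of these sets were of like size, with medians of -1.38 and -1.30. The SNU-449 log2 fold changes of the leading genes were -1.14 for SHH, -0.88 for ZFTA, -0.05 for PRELID3A (adjusted p = 0.934), -2.81 for FGFR3 and -1.76 for MOB3C. In the other direction 208 genes rose in the HepG2 cytoplasm by at least 1 more than in the nucleus, and 105 of them rose in the SNU-449 cytoplasm (50.5%), against 16.9% of all genes of this abundance. With single libraries left out, the share of the HepG2 set that fell in SNU-449 ranged between 68.6% and 80.3%. With library totals in place of TMM the HepG2 set held 450 genes, of which 67.6% fell in SNU-449. The sets were picked by the HepG2 libraries alone, and their share in SNU-449 is a count with no test of its own.

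The mRNAs of the translation machinery that begin with a 5′ terminal oligopyrimidine run (TOP mRNAs) rose in the cytoplasm, and their nuclear effects were lower. TOP mRNAs start with a C followed by an unbroken run of pyrimidines, and their translation is known to depend on the mTOR kinase and the RNA-binding protein LARP1. All 21 tested TOP mRNAs outside the ribosome rose, with log2 fold changes of 0.55 to 1.54 and a median of 0.78, and of 85 cytosolic ribosomal protein genes 69 rose, 2 fell (the paralogs RPL7L1 and RPL26L1) and 14 missed the threshold, for a median of 0.92. The call of RPL26L1 was lost without either siPANAD replicate (adjusted p = 0.082 and 0.17) or NC replicate 1 (adjusted p = 0.23). The 88 ribosomal protein genes took 20.3% and 20.1% of all counts with siPANAD, against 11.7% and 11.9% in NC.

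The starts of 6 of these genes show the shared run. Each line gives 20 bases before and 20 bases from the annotated start in RefSeq (GRCh38.p14), with the run that begins exactly at the start in capitals.
EIF4B, chr12:53006436-53006475, plus strand: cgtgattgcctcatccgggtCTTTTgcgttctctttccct
EEF1A1, chr6:73521013-73521052, minus strand: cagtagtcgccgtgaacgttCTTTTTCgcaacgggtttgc
EEF2, chr19:3985444-3985483, minus strand: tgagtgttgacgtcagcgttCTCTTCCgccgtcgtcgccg
TPT1, chr13:45341164-45341203, minus strand: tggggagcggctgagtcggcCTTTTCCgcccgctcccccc
RPL29, chr3:51995876-51995915, minus strand: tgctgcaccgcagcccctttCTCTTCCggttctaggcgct
RPS19, chr19:41860235-41860274, plus strand: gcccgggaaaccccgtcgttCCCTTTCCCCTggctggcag

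A C at the start followed by at least 4 pyrimidines stood at 1429 of the 35116 RefSeq promoters (4.07%). Counted per gene, over any of its listed starts, it stood in 1404 of 27305 genes (5.14%). By the same count it stood in 48 of the 70 matched ribosomal protein genes (68.6%) and 15 of the 16 matched TOP mRNAs outside the ribosome. Over all 11426 tested genes matched by symbol, the 810 with the run were higher in 40.0% of cases and lower in 22.1% (median 0.26), and the 10616 without it in 24.0% and 28.3% (median -0.05). In the nucleus the medians were 0.03 with the run and -0.06 without it. With the run allowed to begin within 5 bases of the start, the 3304 genes that held it were higher in 28.8% of cases and lower in 26.8% (median 0.02), and the 8122 others in 23.7% and 28.3% (median -0.05). The letters describe the annotated start and not the start used in these cells.

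EIF4B, an initiation factor that helps the helicase eIF4A, moved furthest, at 1189.8 and 1184 CPM with siPANAD, against 379 and 436 CPM in NC (log2 fold change 1.54, SE 0.13; adjusted p = 6.6e-10; nucleus 0.13). EEF1A1, which delivers aminoacyl-tRNA to the ribosome, was at 34898 and 34617 CPM with siPANAD, against 19317 and 24359.9 CPM in NC (log2 fold change 0.67, SE 0.16; adjusted p = 0.00126; nucleus -0.304). EEF2, which drives translocation, was at 10557 and 10411 CPM with siPANAD, against 6909 and 5625 CPM in NC (log2 fold change 0.74, SE 0.15; adjusted p = 2.2e-04; nucleus -0.16). In all 3 the siPANAD libraries lay above both NC libraries in the cytoplasm. TPT1, the translationally controlled tumour protein, was at 3622 and 4087 CPM with siPANAD, against 1798 and 2563 CPM in NC (0.82), and RPS19, of the small subunit, at 7194 and 6968 CPM with siPANAD, against 2898 and 3776 CPM in NC (1.08). Smaller members followed: RACK1, a scaffold on the small subunit (0.78), NPM1, a nucleolar chaperone (0.78), PABPC1, the poly(A)-binding protein (0.56), and EIF3E, EIF3L and EIF3H of the eIF3 complex (0.97, 0.92 and 0.81).

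The difference between the fractions was called for 19 of the 21 TOP mRNAs and for 60 of the 85 ribosomal protein genes, all of them higher in the cytoplasm relative to the nucleus, against 4.98% of all genes called in that direction. Without nuclear siPANAD replicate 2 the counts were 14 and 35, and on library totals 16 and 47. In the nucleus, where 45.6% of all genes were called (22% higher and 23.6% lower), 0 of the 21 TOP mRNAs rose and 6 fell (median -0.16), and 8 ribosomal protein genes rose and 6 fell (median 0.03). The share of nuclear counts in ribosomal protein genes was 3.72% and 3.35% with siPANAD, and 2.84% and 3.30% in NC. The plot of both fractions shows these genes above the diagonal.

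**Figure D2:**
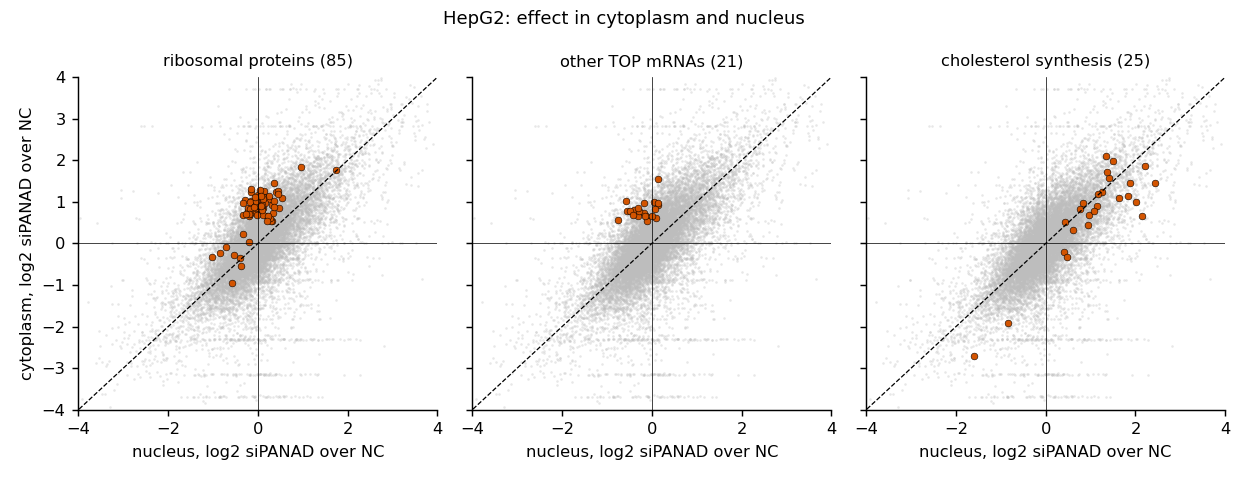
Log2 fold change of siPANAD over NC in the HepG2 nucleus (horizontal) and cytoplasm (vertical); grey points are all genes tested, orange points the members of the list named above each panel, and the dashed line marks equal effects. Ribosomal protein genes and the other TOP mRNAs stand above the line near 0 in the nucleus, with medians of 0.92 and 0.78 in the cytoplasm, while cholesterol synthesis genes lie high in both fractions.

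Other translation genes moved in both directions. Of 39 initiation factors 12 rose and 17 fell (median -0.18). The rises outside the TOP list included EIF4EBP2, a repressor of the cap-binding protein, at 324 and 343 CPM with siPANAD, against 74.3 and 82.99 CPM in NC (log2 fold change 2.08, SE 0.13; adjusted p = 1.3e-12), and the helicase EIF4A2 (1.29), while the cap-binding protein EIF4E (-0.78), the scaffold EIF4G1 (-0.78) and EIF5A (-1.01) fell. In the nucleus 27 of the 39 fell and 1 rose. Of 22 host genes of small nucleolar RNAs 8 rose and 2 fell, among them GAS5 (0.67) and SNHG3 (1.14) that rose and SNHG17 that fell (-0.92), and 9 were higher in the cytoplasm relative to the nucleus (6 without siPANAD replicate 1).

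Nuclear-encoded mitochondrial genes rose in part. Of 76 subunits of oxidative phosphorylation 38 rose and 4 fell (median 0.42), and the count of falls was 2 without either siPANAD replicate. UQCRB of complex III was at 474 and 455 CPM with siPANAD, against 184 and 204 CPM in NC (1.26), ATP5MC2 of the ATP synthase at 455 and 454 CPM with siPANAD, against 223 and 166 CPM in NC (1.22), and COX4I1 of complex IV at 1329 and 1355 CPM with siPANAD, against 825 and 681 CPM in NC (0.83). By complex, 19 of 38 genes rose in complex I, 0 of 4 in complex II, 4 of 9 in complex III, 7 of 10 in complex IV and 8 of 15 in complex V. Of 75 mitochondrial ribosomal proteins 29 rose and 5 fell (median 0.25), or 17 and 3 without siPANAD replicate 1. The 37 genes of the mitochondrial genome had 0 counts in all libraries and were not tested.

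Of 26 plasma protein genes 12 rose and 6 fell (median 0.35). SERPINA1 was at 17559 and 16885 CPM with siPANAD, against 10017 and 6656 CPM in NC (log2 fold change 1.05, SE 0.17; adjusted p = 1.7e-05), with both siPANAD libraries above both NC libraries, although the NC replicates differed. In the nucleus its effect was -0.25, which makes the difference between fractions 1.30 (edgeR adjusted p = 0.00112). SERPINA6, the cortisol carrier, was at 401 and 340.3 CPM with siPANAD, against 64.1 and 46.9 CPM in NC (2.75), haptoglobin HP at 71.5 and 78.6 CPM with siPANAD, against 29.4 and 27.6 CPM in NC (1.398), and ITIH1, an inter-alpha-trypsin inhibitor chain, at 11.04 and 9.25 CPM with siPANAD, against 0.651 and 0.525 CPM in NC (4.13). Albumin, ALB (0.29), transferrin, TF (-0.11), and AHSG (0.34) did not pass. The copper carrier CP, in contrast, was at 8.08 and 8.39 CPM with siPANAD, against 32.5 and 30.9 CPM in NC (-1.94), and SERPINA3, an acute phase antichymotrypsin, fell (-1.44).

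Coagulation and complement genes leaned higher, with 17 of 34 higher and 7 lower (median 0.45). CPB2, which slows fibrin breakdown, was at 54.9 and 55.3 CPM with siPANAD, against 17.1 and 16.2 CPM in NC (1.73), coagulation factor F10 at 309.8 and 313 CPM with siPANAD, against 194 and 138 CPM in NC (0.91), and the anticoagulant SERPINC1 at 226 and 232 CPM with siPANAD, against 143 and 168 CPM in NC (0.56). The fibrinogen chains FGB (-0.704) and FGA (-0.62) and prothrombin, F2 (-0.56), fell. In complement, the terminal components C8A (1.53) and C8B (2.08) and the alternative pathway's CFB (0.82) rose, C5 (-0.73) and the lectin pathway protease MASP1 (-1.44) fell, and C3 (0.296) did not pass.

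Most apolipoprotein mRNAs rose, and that of APOB fell. Of 11 apolipoproteins 9 rose (median 0.75), with APOC3, an inhibitor of lipoprotein lipase, at 1452 and 1323 CPM with siPANAD, against 365 and 276 CPM in NC (log2 fold change 2.12, SE 0.16; adjusted p = 7.4e-11), and APOA1, the main protein of HDL, at 6473 and 6245 CPM with siPANAD, against 3876 and 3684 CPM in NC (log2 fold change 0.75, SE 0.16; adjusted p = 4.6e-04). APOB, the scaffold of VLDL and LDL, was at 1319 and 1181 CPM with siPANAD, against 3248 and 2657 CPM in NC (log2 fold change -1.24, SE 0.16; adjusted p = 5.0e-07). Of the 11 genes of lipoprotein assembly, lipases and receptors 7 fell and 2 rose (median -0.82). MTTP, which loads lipid onto APOB, was at 15.1 and 17.95 CPM with siPANAD, against 70.4 and 67.1 CPM in NC (-2.05), and ANGPTL8, a lipase inhibitor, at 134 and 140.5 CPM with siPANAD, against 776 and 593 CPM in NC (-2.32). The HDL receptor SCARB1 fell (-1.01), whereas hepatic lipase LIPC (1.695) and the cholesterol esterifying enzyme LCAT (1.44) rose.

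**Figure D3:**
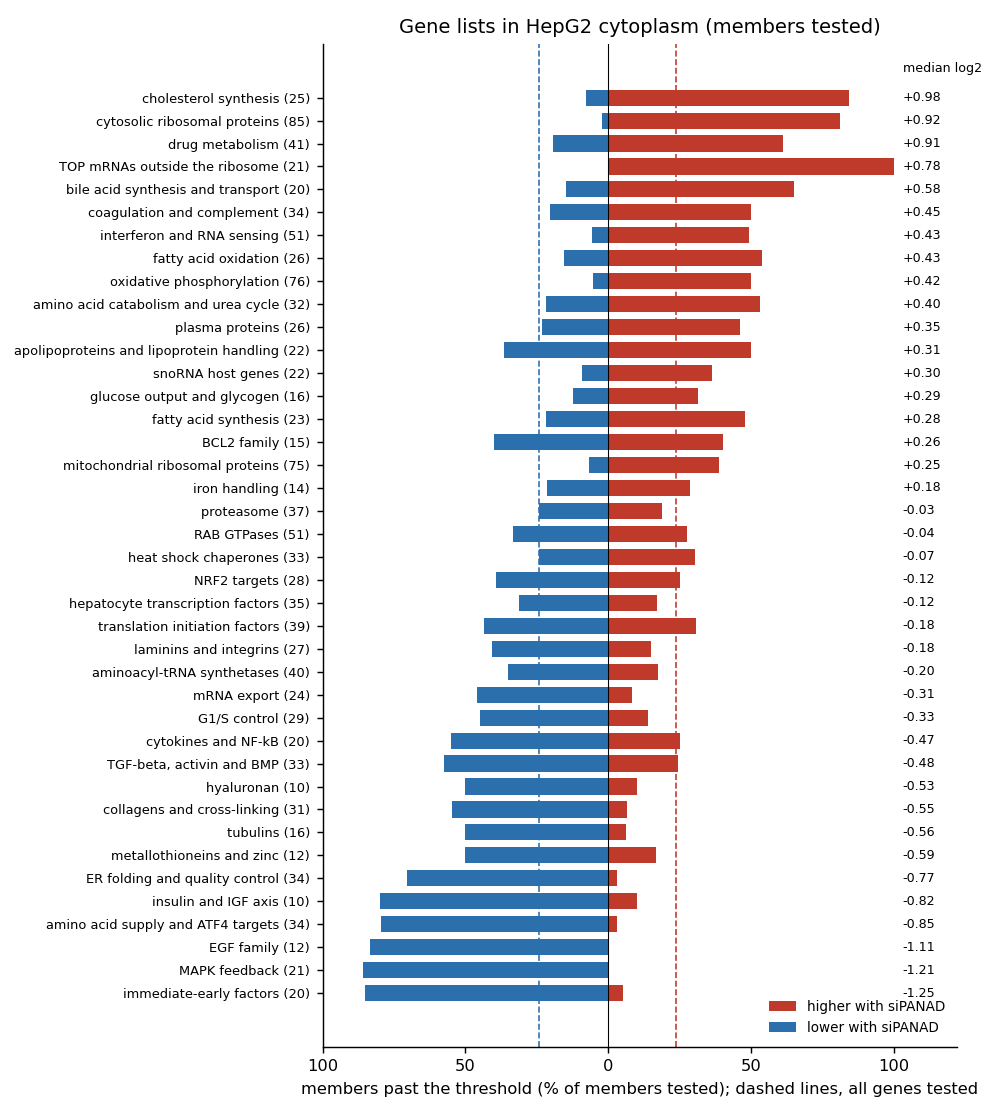
For 40 gene lists, the share of tested members (number in brackets) that were higher with siPANAD (red, to the right) or lower (blue, to the left) in the HepG2 cytoplasm, in percent of members tested, with the list's median log2 fold change at the right; dashed lines mark the shares over all genes tested, 23.7% higher and 24.2% lower. Cholesterol synthesis, ribosomal proteins and the other TOP mRNAs stand near the top, and EGF family, MAPK feedback and immediate-early genes near the bottom.

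Cholesterol synthesis enzymes rose from end to end. All 20 enzymes tested rose (median 1.12), and 20 of 20 also rose in the nucleus (median 1.30). HMGCS1, at the entry of the pathway, was at 41.2 and 48.1 CPM with siPANAD, against 13.2 and 18.8 CPM in NC (log2 fold change 1.46, SE 0.16; adjusted p = 9.2e-08). ACAT2, which makes acetoacetyl-CoA, was at 210.2 and 209 CPM with siPANAD, against 65.3 and 75.3 CPM in NC (1.57), IDI1, which isomerises the isoprene unit, at 75.5 and 68.8 CPM with siPANAD, against 19.96 and 23.6 CPM in NC (1.72), and HSD17B7, late in the pathway, at 47.9 and 40.7 CPM with siPANAD, against 11.8 and 12.6 CPM in NC (1.86). The regulators SREBF2 (-0.200) and SCAP (-0.31) did not pass. On TMM scaling 2 of the 25 genes of the list fell, and 4 with library totals alone.

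Fatty acid genes were mixed. Of 23 synthesis genes 11 rose and 5 fell (median 0.28): ACSS2, which activates acetate, was at 166 and 156 CPM with siPANAD, against 63.05 and 56.4 CPM in NC (1.43), the desaturase SCD at 1176 and 1184 CPM with siPANAD, against 871 and 767 CPM in NC (0.53), the acyl-CoA ligase ACSL3 at 96.1 and 90.6 CPM with siPANAD, against 359 and 376 CPM in NC (-1.98), and the regulator SREBF1 fell (-1.06). Of 26 fatty acid oxidation and PPAR target genes 14 rose and 4 fell (2 without siPANAD replicate 1; median 0.43). CPT2, of mitochondrial import (1.13), and the dehydrogenases ACADSB (1.11) and ACADM (0.78) rose, with the liver factor CREB3L3 at 105 and 90.4 CPM with siPANAD, against 24.2 and 18.2 CPM in NC (2.22). The lipid droplet protein PLIN2 was at 346 and 387 CPM with siPANAD, against 841 and 923 CPM in NC (-1.27).

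Bile acid and drug metabolism genes leaned higher. Of 20 bile acid genes 13 rose and 3 fell (median 0.58), and without NC replicate 2 the count of rises was 8. CYP7A1, the rate-limiting enzyme of bile acid synthesis, had 18 and 21 counts with siPANAD, against 3 and 1 counts in NC, at or below the floor. The ratio of its summed counts per scaled total was 14.9 (exact 95% interval 5.37 to 57.4, counting error only), and edgeR called it (adjusted p = 6.4e-06), with a fitted value that depends on these few counts. BAAT, which conjugates bile acids, was at 34.5 and 33.3 CPM with siPANAD, against 7.302 and 8.53 CPM in NC (log2 fold change 2.09, SE 0.15; adjusted p = 4.3e-11). NR0B2, the repressor SHP, fell (-1.15), and its activator NR1H4, the bile acid receptor FXR, rose (0.68). Of 41 drug metabolism genes 25 rose and 8 fell (median 0.91). GSTA2, a glutathione transferase, was at 111 and 89.8 CPM with siPANAD, against 9.62 and 8.61 CPM in NC (3.47), the steroid sulfotransferase SULT2A1 at 357 and 342 CPM with siPANAD, against 81.3 and 64.2 CPM in NC (2.27), CYP3A5 at 30.7 and 28.7 CPM with siPANAD, against 5.06 and 6.42 CPM in NC (2.34), and CYP2D6 at 25.1 and 26.6 CPM with siPANAD, against 9.47 and 6.87 CPM in NC (1.69). The vitamin D hydroxylase CYP24A1 (-1.57), the aryl hydrocarbon receptor AHR (-1.59) and the bilirubin transferase UGT1A1 (-1.403) fell.

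Amino acid breakdown and amino acid supply moved apart. Of 32 catabolic and urea cycle genes 17 rose and 7 fell (median 0.40). HPD, of tyrosine breakdown, was at 1988 and 2053 CPM with siPANAD, against 857 and 776 CPM in NC (1.31), ASS1, of the urea cycle, at 808 and 724 CPM with siPANAD, against 336 and 267 CPM in NC (1.34), and AHCY, of the methionine cycle, at 2471 and 2560 CPM with siPANAD, against 1598 and 1494 CPM in NC (0.702). CTH, which makes cysteine, fell (-2.18), and so did MAT2A (-1.38), the non-hepatic methionine adenosyltransferase, while the hepatic MAT1A rose (0.797).

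Of 34 genes of amino acid supply and targets of the stress factor ATF4, 27 fell and 1 rose (median -0.85), and in the nucleus 25 fell and 1 rose. The 1 cytoplasmic rise was ATF5 (0.38), a call lost under most other settings. It was lost on library totals, by DESeq2, with DESeq2's size factors in edgeR and with no filter on low counts. It was also lost with a replicate block, with the cytoplasm libraries fitted alone and without any single nuclear library. Without siPANAD replicate 1 (0.13) or NC replicate 1 (0.21) it was lost as well. All 10 amino acid transporters fell, among them the arginine and lysine carrier SLC7A1 at 43.7 and 47.7 CPM with siPANAD, against 231 and 191 CPM in NC (log2 fold change -2.21, SE 0.14; adjusted p = 3.0e-12), SLC38A2, of small neutral amino acids, at 123 and 119 CPM with siPANAD, against 396 and 444 CPM in NC (-1.797), and the glutamine carrier SLC1A5 at 282 and 280.0 CPM with siPANAD, against 876 and 784 CPM in NC (-1.56). TRIB3, a pseudokinase induced by ATF4, was at 332 and 411 CPM with siPANAD, against 1924 and 1632 CPM in NC (log2 fold change -2.26, SE 0.15; adjusted p = 5.5e-12). The secreted factor STC2 (-1.94), the phosphatase subunit PPP1R15A (-1.67), the alanine transaminase GPT2 (-1.42) and the proline enzyme PYCR1 (-1.12) fell, and ATF4 itself fell less (-0.56). PHGDH, SHMT2 and DDIT3 did not pass (0.26, -0.23 and -0.26). Of 40 aminoacyl-tRNA synthetase genes 14 fell and 7 rose (4 without siPANAD replicate 2; median -0.20), and 11 were higher in the cytoplasm relative to the nucleus, or 3 without siPANAD replicate 2 and 2 on library totals. VARS1 (-1.28) and YARS1 (-1.04) fell, and QARS1 rose (0.83).

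Most genes of protein folding in the endoplasmic reticulum (ER) fell, and calnexin rose. Of 34 genes of ER folding and quality control 24 fell and 1 rose (median -0.77). CANX, the membrane lectin chaperone calnexin, was at 680.0 and 698 CPM with siPANAD, against 222 and 230.2 CPM in NC (log2 fold change 1.61, SE 0.13; adjusted p = 1.7e-10), while its soluble relative CALR, calreticulin, was at 999.7 and 1128 CPM with siPANAD, against 3479.9 and 2701 CPM in NC (log2 fold change -1.54, SE 0.15; adjusted p = 5.4e-09). HYOU1, a large ER chaperone, was at 149 and 149.5 CPM with siPANAD, against 667 and 551 CPM in NC (-2.03), and GANAB, a glucosidase that trims glycans for these lectins, at 106 and 98.9 CPM with siPANAD, against 504 and 454 CPM in NC (log2 fold change -2.22, SE 0.14; adjusted p = 1.6e-12). PDIA4 (-1.51) and PDIA6 (-1.001), which form disulfide bonds, HSP90B1 (-1.45), the sensors ERN1 (-1.48) and ATF6 (-0.89) and the transcription factor XBP1 (-0.55) fell. GANAB differed between fractions by -1.37, with a nuclear effect of -0.86.

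The ER stress response element, known from the promoters of ER chaperones, stood in genes of both directions. It was searched as CCAAT, 9 bases of any kind and CCACG on both strands of the RefSeq promoter windows (250 bases before to 50 after each start). It stood in 27 of 35116 promoters (0.0769%). Counted per gene, it stood in 25 of 27305 genes (0.0916%) and in 7 of the 31 matched ER genes, 6 of which fell and 1 of which rose (CANX). The element is in capitals in 60 bases of GRCh38.p14 for 3 genes that fell and for CANX; in CALR it reads on the other strand.
HSPA5, chr9:125241371-125241430, minus strand: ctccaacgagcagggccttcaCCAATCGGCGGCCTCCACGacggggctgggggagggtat
CALR, chr19:12938363-12938422, plus strand: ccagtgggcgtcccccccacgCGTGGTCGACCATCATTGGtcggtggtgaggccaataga
XBP1, chr22:28800583-28800642, minus strand: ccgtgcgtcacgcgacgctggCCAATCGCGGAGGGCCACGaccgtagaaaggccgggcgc
CANX, chr5:179698757-179698816, plus strand: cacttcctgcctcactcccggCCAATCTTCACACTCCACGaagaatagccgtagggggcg

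Cytosolic chaperones and the proteasome were mixed, with counts near the shares of all genes tested, 23.7% higher and 24.2% lower. Of 33 heat shock and chaperonin genes 10 rose and 8 fell (5 without siPANAD replicate 1; median -0.07), and on library totals 8 rose and 10 fell. HSPA8, the constitutive HSP70, was at 2013 and 1960.1 CPM with siPANAD, against 607 and 560.5 CPM in NC (log2 fold change 1.77, SE 0.14; adjusted p = 8.7e-11), the inducible HSPA1A at 27.6 and 25.3 CPM with siPANAD, against 16.1 and 14.1 CPM in NC (0.82), and the mitochondrial HSPA9 at 356 and 372 CPM with siPANAD, against 637 and 741 CPM in NC (-0.92). Of 37 proteasome genes 7 rose and 9 fell, and without either siPANAD replicate 4 were higher. Of the 7 rises 4 were among the 5 genes of the immunoproteasome (median 1.16), with the catalytic subunit PSMB9 at 67.9 and 54.96 CPM with siPANAD, against 19.2 and 21.4 CPM in NC (log2 fold change 1.59, SE 0.14; adjusted p = 1.2e-09) and PSMB8 at 187 and 177 CPM with siPANAD, against 79.2 and 84.5 CPM in NC (1.16). In the 20S core 0 of 14 rose and 1 fell, and in the 19S cap 8 of 18 fell, such as PSMD12 (-1.37).

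Genes of growth factor signalling through the EGF receptor and MAP kinase fell, among them ligands, feedback inhibitors and targets. Of 12 EGF family genes 10 fell and 0 rose (median -1.11). The ligand AREG was at 17.03 and 19.4 CPM with siPANAD, against 135 and 123 CPM in NC (log2 fold change -2.82, SE 0.14; adjusted p = 4.6e-14), EREG at 9.44 and 11.5 CPM with siPANAD, against 82.9 and 71.1 CPM in NC (log2 fold change -2.87, SE 0.16; adjusted p = 2.6e-13), and TGFA at 22.3 and 25.8 CPM with siPANAD, against 52.8 and 50.9 CPM in NC (-1.11). ADAM17, the protease that sheds these ligands, was at 9.36 and 8.86 CPM with siPANAD, against 65.1 and 54.2 CPM in NC (log2 fold change -2.71, SE 0.15; adjusted p = 3.7e-13). The receptors EGFR (-0.11) and ERBB2 (-0.05) did not pass. ERRFI1, an inhibitor of the receptor, fell (-2.200).

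Of 21 genes of MAP kinase feedback 18 fell and 0 rose (median -1.21). DUSP6, the phosphatase of ERK, was at 14.95 and 16.9 CPM with siPANAD, against 70.2 and 80.4 CPM in NC (log2 fold change -2.24, SE 0.15; adjusted p = 9.2e-12), SPRY4, an inhibitor of the pathway, at 26.5 and 30.3 CPM with siPANAD, against 129 and 127 CPM in NC (-2.17), EPHA2 at 98.6 and 105 CPM with siPANAD, against 484 and 393 CPM in NC (-2.104), and IER3 at 52.7 and 69.2 CPM with siPANAD, against 437 and 307 CPM in NC (-2.61). Of 20 immediate-early factors 17 fell and 1 rose (JUND, 0.55, or 0.42 and not called without siPANAD replicate 2), with a median of -1.25. JUN was at 65.8 and 62.96 CPM with siPANAD, against 188 and 169 CPM in NC (-1.47), KLF6 at 39.7 and 37.9 CPM with siPANAD, against 92.6 and 109.8 CPM in NC (-1.39), NR4A1 at 9.68 and 7.92 CPM with siPANAD, against 33.6 and 30.95 CPM in NC (-1.87), and IER2 at 24.8 and 18.9 CPM with siPANAD, against 43.1 and 57.5 CPM in NC (-1.21). In the nucleus 17 feedback genes and 15 immediate-early factors fell, and 0 and 1 rose.

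The insulin-like growth factor (IGF) axis fell in 8 of 10 genes and rose in 1 (median -0.82). IGFBP1, a binding protein that liver cells secrete, was at 155 and 221 CPM with siPANAD, against 3481 and 3634 CPM in NC (log2 fold change -4.24, SE 0.21; adjusted p = 1.3e-12), and IGFBP4 at 73.4 and 68.5 CPM with siPANAD, against 499 and 516 CPM in NC (log2 fold change -2.84, SE 0.15; adjusted p = 7.2e-14). IGFALS, the subunit that holds IGF in the circulating complex, was at 28.1 and 26.3 CPM with siPANAD, against 2.96 and 2.46 CPM in NC (log2 fold change 3.35, SE 0.18; adjusted p = 1.1e-13). The receptors IGF1R (-0.77), INSR (-0.87) and IGF2R (-1.38) and the adaptor IRS1 (-0.63) fell. IGF2 fell (-0.45), and shares 73.7% of its exonic bases with other genes of its strand.

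In the TGF-beta, activin and BMP family 19 of 33 genes fell and 8 rose, or 5 without siPANAD replicate 1 and 5 without NC replicate 2. INHBB, an activin subunit, was at 3.68 and 3.92 CPM with siPANAD, against 47.2 and 46.5 CPM in NC (log2 fold change -3.62, SE 0.17; adjusted p = 9.8e-15), and the activin antagonist FST, follistatin, at 9.68 and 9.17 CPM with siPANAD, against 71.6 and 74.5 CPM in NC (log2 fold change -2.96, SE 0.14; adjusted p = 2.0e-14). TGFB1 was at 167 and 172 CPM with siPANAD, against 500.4 and 369.7 CPM in NC (-1.36), the co-receptor TGFBR3 at 28.5 and 28.5 CPM with siPANAD, against 139.6 and 158 CPM in NC (-2.38), and GDF15, a distant member of the family, at 427 and 437 CPM with siPANAD, against 2085 and 1401 CPM in NC (-2.01). Of 11 receptors tested 7 fell and 2 rose. The larger rise was that of AMHR2, of anti-Müllerian hormone, at 22.5 and 19.3 CPM with siPANAD, against 0.145 and 0.404 CPM in NC (log2 fold change 6.05, SE 0.28, edgeR adjusted p = 1.0e-14, and 7.10 without NC replicate 2). Its NC libraries held 2 and 10 counts. The ratio of its summed counts per scaled total was 67.1 (exact 95% interval 38.1 to 131, counting error only). Of 4 BMP targets of the ID family 2 rose, by up to 1.178, with ID2 (0.83) among them, and ID1 and ID3 did not pass (-0.32 and 0.104).

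Genes of the matrix and its remodelling fell in part. SERPINE2, an inhibitor of plasminogen activators, fell (log2 fold change -2.61, SE 0.14; adjusted p = 7.9e-14), and 4 of 6 genes of plasminogen activation fell in all. Of 10 hyaluronan genes 5 fell and 1 rose (HYAL1, 0.92): the synthase HAS3 was at 1.52 and 1.57 CPM with siPANAD, against 16.9 and 15.8 CPM in NC (log2 fold change -3.395, SE 0.23; adjusted p = 6.5e-12), and CEMIP, which takes part in hyaluronan breakdown, at 14.6 and 15.6 CPM with siPANAD, against 175 and 172 CPM in NC (log2 fold change -3.52, SE 0.14; adjusted p = 1.4e-15). Of 31 collagen and cross-linking genes 17 fell and 2 rose, or 0 without siPANAD replicate 1. LOX, which cross-links collagen, was at 30.7 and 37.9 CPM with siPANAD, against 288 and 219.7 CPM in NC (log2 fold change -2.89, SE 0.15; adjusted p = 1.2e-13), the lysyl hydroxylase PLOD2 at 43.7 and 38.8 CPM with siPANAD, against 114 and 133 CPM in NC (-1.58), and the collagen chaperone SERPINH1 at 239 and 234 CPM with siPANAD, against 726 and 497 CPM in NC (-1.37). Of these 31 genes COL1A1 had 0 counts in both siPANAD libraries and 6 in each NC library. The list's median was -0.55, or -0.52 without COL1A1. Of 27 laminins and integrins 11 fell and 4 rose (median -0.18), with the integrin chains ITGA6 (-2.51), ITGB1 (-1.51) and ITGAV (-1.45) among the falls and the laminin chain LAMA3 (2.76) among the rises.

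Cytokines fell in part. Of 20 cytokine and NF-kB genes 11 fell and 5 rose (median -0.47). The chemokine CCL20 was at 28.5 and 29.9 CPM with siPANAD, against 133 and 158 CPM in NC (-2.32), the cytokine LIF at 23.3 and 22.9 CPM with siPANAD, against 133 and 135 CPM in NC (-2.54), and the adhesion molecule ICAM1 at 85.4 and 84.9 CPM with siPANAD, against 403 and 269 CPM in NC (-1.98). TNFSF10, the death ligand TRAIL, was at 5.598 and 6.43 CPM with siPANAD, against 1.301 and 1.05 CPM in NC (log2 fold change 2.38, SE 0.28; adjusted p = 8.6e-08), and the NF-kB inhibitors NFKBIA (0.78) and TNFAIP3 (0.99) rose.

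**Figure D4:**
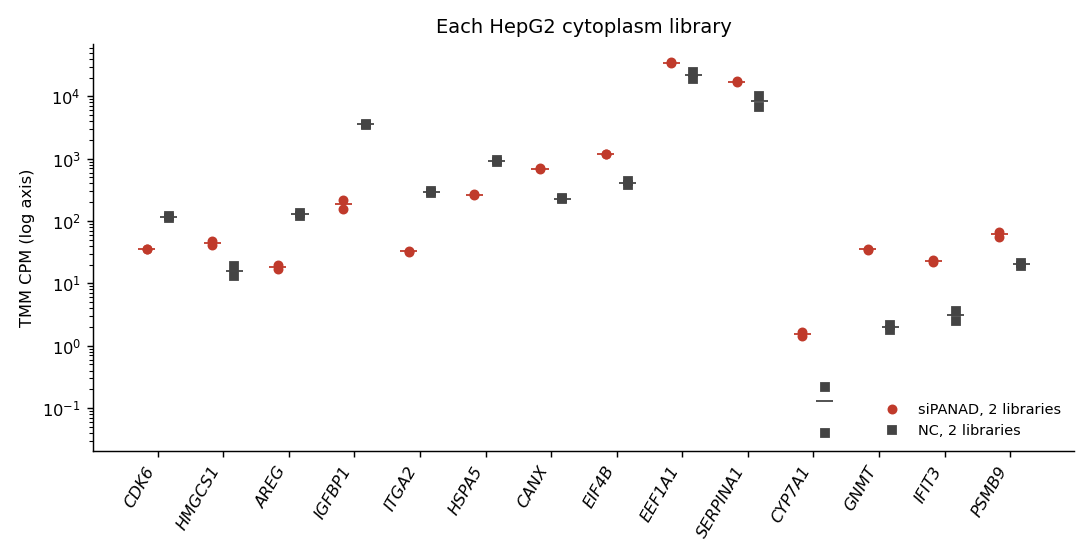
TMM-normalised CPM (log axis) of 14 genes in each HepG2 cytoplasm library: red circles are the 2 siPANAD libraries, dark squares the 2 NC libraries, and short lines the group means. The groups do not overlap in these genes, as in 71.7% of all genes tested, and the ER chaperones HSPA5 and CANX move in opposite directions.

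Interferon-stimulated genes leaned higher. Of 51 tested, 25 rose and 3 fell (median 0.43). Among 30 effectors 18 rose and 0 fell (median 0.72). IFIT3, which binds foreign RNA with IFIT1, was at 21.8 and 24.1 CPM with siPANAD, against 2.53 and 3.64 CPM in NC (log2 fold change 2.85, SE 0.19; adjusted p = 6.7e-12), and IFIT1 at 9.68 and 11.4 CPM with siPANAD, against 1.59 and 1.62 CPM in NC (log2 fold change 2.71, SE 0.23; adjusted p = 5.3e-10). The ubiquitin-conjugating enzyme UBE2L6 was at 208 and 203 CPM with siPANAD, against 65.8 and 53.98 CPM in NC (1.78) and the ubiquitin-like ISG15 that it attaches at 196 and 187 CPM with siPANAD, against 80.1 and 74.5 CPM in NC (1.31). The RNA sensor IFIH1 rose (1.53), as did the transcription factor IRF1 (1.36) and the light chain of class I antigen presentation B2M (1.02). OAS1 (0.22), IFI6 (0.07) and TAP1 (-0.01) did not pass.

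The interferon-stimulated response element, searched as GAAA, 2 bases of any kind and GAAA on either strand, stood in 1255 of 35116 RefSeq promoters (3.57%). Counted per gene, it stood in 1195 of 27305 genes (4.38%) and in 27 of 41 matched interferon genes. Of the 24 tested genes with it 62.5% rose and 4.2% fell (median 0.90), whereas of all 426 tested genes with the letters 30.3% rose and 26.8% fell. For the IFIT pair 1 match per window is in capitals, and both windows read it on the other strand. The IFIT1 window holds a further match, tttcactttc, which is left in lower case.
IFIT1, chr10:89392495-89392554, plus strand: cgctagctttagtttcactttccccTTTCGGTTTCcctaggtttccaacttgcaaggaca
IFIT3, chr10:89327850-89327909, plus strand: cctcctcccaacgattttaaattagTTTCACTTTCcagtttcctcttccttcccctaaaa

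Members of the BCL2 family parted by role. All 5 anti-apoptotic genes fell, with MCL1 at 157 and 158 CPM with siPANAD, against 214 and 255 CPM in NC (-0.58), BCL2L2 at 22.2 and 19.5 CPM with siPANAD, against 38.5 and 52.2 CPM in NC (-1.13) and BCL2L1, 43% of whose exonic bases lie opposite another gene, at 480.0 and 489 CPM with siPANAD, against 1070.5 and 915 CPM in NC (-1.03). Calls of the low-level BCL2 and BCL2A1 (-0.65 and -1.01) rested on single libraries: without NC replicate 2 they were -0.55 (adjusted p = 0.079) and -0.80 (adjusted p = 0.24), and without siPANAD replicate 2 -0.56 (adjusted p = 0.11) and -1.10 (adjusted p = 0.098). The BCL2A1 call was also lost without siPANAD replicate 1 (adjusted p = 0.13). Of 7 BH3-only genes, which oppose them, 4 rose and 1 fell (median 0.81), with BMF at 60.2 and 53.7 CPM with siPANAD, against 18.1 and 18.4 CPM in NC (log2 fold change 1.64, SE 0.13; adjusted p = 2.0e-10), BBC3 at 68.4 and 65.6 CPM with siPANAD, against 33.8 and 35.4 CPM in NC (0.95), BIK at 48.2 and 43.4 CPM with siPANAD, against 26.2 and 24.1 CPM in NC (0.87) and BAD at 36.1 and 36.7 CPM with siPANAD, against 21.5 and 20.2 CPM in NC (0.81). BAK1 did not pass (0.26). DESeq2 called 3 of the 15 genes lower, against 6 by edgeR, and on library totals 7 were lower and 5 higher.

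Redox, iron and RAB genes had no single direction. Several of their counts lay near the shares of all genes tested, 23.7% higher and 24.2% lower. Tubulin, metallothionein and zinc genes leaned lower. Of 28 NRF2 targets and regulators 11 fell and 7 rose (median -0.12): the thioredoxin reductase TXNRD1 was at 97.96 and 97.7 CPM with siPANAD, against 211 and 264 CPM in NC (-1.28), the aldo-keto reductase AKR1B10 at 161 and 182 CPM with siPANAD, against 487 and 523 CPM in NC (-1.55), NFE2L2, which codes for NRF2, fell (-0.65), and heme oxygenase HMOX1 was at 325 and 312 CPM with siPANAD, against 158 and 110.1 CPM in NC (1.25). Of 12 metallothionein and zinc genes 6 fell and 2 rose, with MT2A at 203 and 189 CPM with siPANAD, against 547 and 348 CPM in NC (-1.19). Of 14 iron genes 4 rose and 3 fell (4 fell on library totals). The transferrin receptor TFRC was at 154 and 158 CPM with siPANAD, against 357 and 507 CPM in NC (log2 fold change -1.47, SE 0.15; adjusted p = 8.4e-09), and FTH1, 62.4% of whose exonic bases lie opposite another gene, at 5481 and 7089 CPM with siPANAD, against 3037 and 3173 CPM in NC (1.02). Of 16 listed tubulins 8 fell and 1 rose (TUBG2, 1.38). The list leaves out TUBA4B, whose rise is given above. TUBB6 was at 24.2 and 23.2 CPM with siPANAD, against 116 and 83.6 CPM in NC (-2.07). Of 51 RAB genes 14 rose and 17 fell, with RAB17, of epithelial membrane traffic, at 354 and 354 CPM with siPANAD, against 105 and 111 CPM in NC (1.71), and RAB12 at 4.398 and 6.35 CPM with siPANAD, against 20.97 and 18.4 CPM in NC (-1.86; nucleus -0.45).

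Of 35 transcription factors of hepatocytes 6 rose and 11 fell (median -0.12, and 0.04 in the nucleus), where 26.7% of all genes of at least 5 CPM rose and 32.8% fell. HNF4A was at 259.7 and 262 CPM with siPANAD, against 422 and 381 CPM in NC (log2 fold change -0.62, SE 0.13; adjusted p = 2.2e-04), and PROX1 (-0.902) and FOXA2 (-0.56) fell, while FOXA1 (-0.06) and GATA4 (-0.05) did not pass. Among nuclear receptors NR1H3, the oxysterol receptor LXR alpha, was at 153 and 153 CPM with siPANAD, against 80.3 and 67.8 CPM in NC (1.05), and PPARG (-1.03) and PPARD (-1.103) fell. Of 16 genes of glucose output and glycogen 5 rose and 2 fell (3 rose by DESeq2; 4 fell on library totals), and the rises included the glucose-6-phosphate translocase SLC37A4 (1.02) and the glucokinase regulator GCKR (0.76). Of 8 genes around TXNIP, an arrestin-like brake on glucose uptake, 4 fell, with TXNIP at 113 and 110.0 CPM with siPANAD, against 151 and 172 CPM in NC (-0.54), and 1 rose.

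Effects in cytoplasm and nucleus were also set side by side. Of 5301 genes called in both fractions, 137 had opposite directions, 70 higher in the cytoplasm and lower in the nucleus and 67 the reverse. The difference of the 2 effects passed the test for 1730 of 17499 genes (9.89%), 871 with the higher (4.98%) and 859 with the lower effect in the cytoplasm (4.91%). With library totals in place of TMM the split was 392 higher and 2665 lower, and the median difference of all genes was -0.27, so the direction of a small difference depends on the scaling. Without nuclear siPANAD replicate 2, 841 genes passed, and 1010, 1077 and 1057 passed without cytoplasmic siPANAD replicate 1, cytoplasmic siPANAD replicate 2 and nuclear siPANAD replicate 1. The 6 highest differences were those of UBAP1L (2.18), SP2-DT (2.06), TGM1 (2.00), RBM7 (1.99) and the processed pseudogenes RPL37P23 (2.14) and RPS27P8 (1.98), which are near copies of ribosomal protein genes, so that their counts are uncertain. RBM7, an RNA-binding adaptor of the nuclear exosome, was at 33.6 and 32.1 CPM with siPANAD, against 6.72 and 6.303 CPM in NC in the cytoplasm (log2 fold change 2.34, SE 0.16; adjusted p = 1.2e-11), and these groups did not overlap. Its nuclear effect was 0.35. In SNU-449 its cytoplasmic log2 fold change was 1.98.

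Against the cytoplasm of SNU-449, the HepG2 effect differed for 3714 of 20459 genes (18.2%), 1838 with the higher (8.98%) and 1876 with the lower effect in HepG2 (9.17%), in 1 edgeR fit of all 16 libraries. With library totals alone the split was 1217 and 2966. Cholesterol synthesis was the list with the largest share of such differences: of 25 genes 19 had the higher effect in HepG2 and 1 the lower. In SNU-449 cytoplasm 9 of the 25 fell and 1 rose (median -0.11). The effect on MSMO1 was 2.09 in HepG2 and 0.604 in SNU-449. Of 85 ribosomal protein genes 48 had the higher effect in HepG2 and 0 the lower, and in SNU-449 18 rose and 5 fell (median 0.21). Of 51 interferon genes 16 had the higher effect in HepG2 and 0 the lower. The ribosomal count was 32 without SNU-449 siPANAD replicate 1 and 32 on library totals, and the interferon count 10 without HepG2 siPANAD replicate 1.

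**Figure D5:**
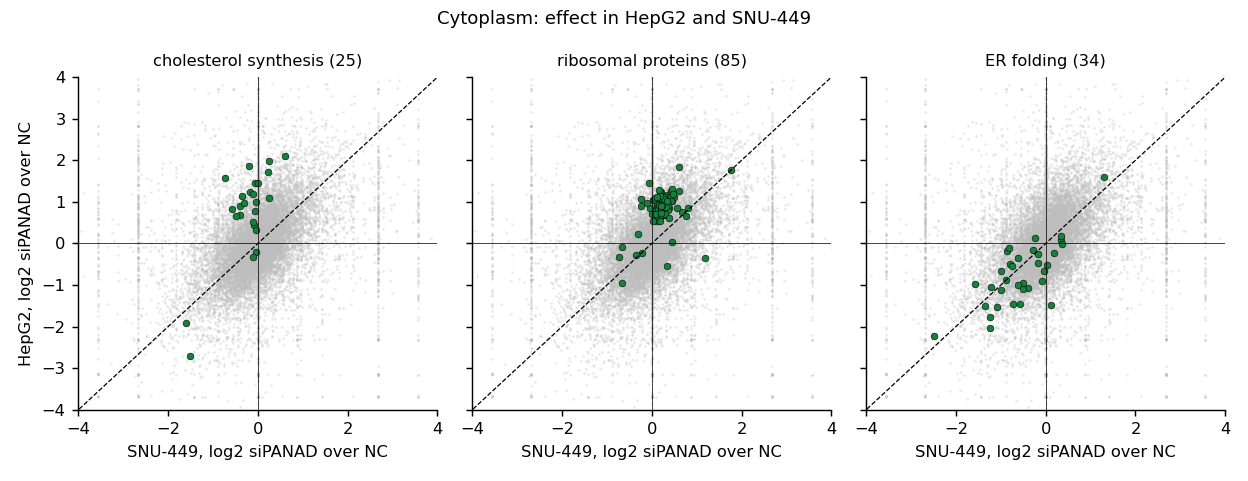
Log2 fold change of siPANAD over NC in the SNU-449 cytoplasm (horizontal) and the HepG2 cytoplasm (vertical), from the separate contrasts; grey points are all genes tested, green points the members of the list named above each panel, and the dashed line marks equal effects. Cholesterol synthesis genes lie high in HepG2 and near 0 in SNU-449 (median -0.11), and ribosomal proteins are higher in HepG2 than in SNU-449. ER folding genes lie low in both (medians -0.77 in HepG2 and -0.60 in SNU-449), and 10 of 34 had the lower effect in HepG2 and 2 the higher.

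Members of the stress and growth lists fell in both lines. In SNU-449 20 of 34 amino acid and ATF4 genes and 21 of 34 ER folding genes fell, and 1 and 3 rose. Of 12 EGF family genes 10 fell and 0 rose there, and of 21 MAP kinase feedback genes 14 fell and 3 rose. Over all genes tested in SNU-449, 17.4% fell and 13% rose. TRIB3 had -1.97, HYOU1 -1.23, GANAB -2.49 and CANX 1.297 in that line. The effect was lower in HepG2 than in SNU-449 for 11 of the 34 amino acid and ATF4 genes, and higher for 2. For the 34 ER folding genes these counts were 10 and 2. They were 5 and 0 for the 12 EGF family genes, and 9 and 2 for the 21 feedback genes. Over all genes tested for this difference 9.17% had the lower effect in HepG2 and 8.98% the higher. Genes with the lower effect in HepG2 included ITGA2, at -2.66 relative to SNU-449 (SE 0.19; edgeR adjusted p = 5.6e-15), IGFBP1 (-2.52), PDGFRB (-3.31) and the serine kinase gene SBK3 (-3.31), which fell in HepG2 (-1.71) and rose in SNU-449 (1.59). PDZK1IP1 rose in both, by 0.85 in SNU-449, where its level was 164 and 162 CPM with siPANAD and 87.4 and 93.9 CPM in NC. CYGB, cytoglobin, rose in HepG2, at 43.2 and 38.3 CPM with siPANAD, against 7.95 and 5.899 CPM in NC (2.58), and its difference from SNU-449 was 4.66. Other large differences rested on SNU-449 levels under 1 CPM in all 4 cytoplasmic libraries, where the fitted value is no measure of size: SLCO2B1, SYT7, ERP27, TUBA4B, FUT1, C5AR1, SH2D2A and NPW. The PDGFRB level in SNU-449 was also under 1 CPM. CDK6 fell by less in HepG2 than in SNU-449, with a difference of 0.77 (edgeR adjusted p = 4.6e-04).

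Effects also varied with abundance and with the length of the annotated exons. When genes were ranked by mean CPM and cut into 10 equal groups, 29.6% rose and 12.5% fell in the third group from the bottom (median 0.38), and 22.5% rose and 40.7% fell in the ninth (median -0.16). When genes were ranked by exonic length and cut into 10 equal groups, in the group of the shortest the median log2 fold change was 0.23 and 20.8% rose while 7.65% fell. In the group of the longest the median was -0.19, with 15.8% higher and 35.7% lower. In the nucleus the medians of these groups were 0.11 and -0.15. The part of abundance and of length in the change of any gene list was not tested.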

How the data were processed

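The deposited tables hold raw read counts per gene for each fraction library of both lines, and the authors did not pool replicates. Reads were trimmed with Trim Galore 0.6.4 and aligned with HISAT2 2.2.1 to hg38, per the submitters' processing notes, and the labels' protocols call the libraries directional. The counting program and its strand setting are not given in the sources used here. Of 67938 gene IDs 61444 were matched to a symbol, with positions and overlaps taken from GENCODE 29 (GRCh38).

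In R 4.3.3, genes were kept by edgeR 4.0.16's filter (minimum count 10), scaled by TMM and tested by its robust quasi-likelihood test in 1 fit of the 8 HepG2 libraries, with Benjamini-Hochberg adjustment and a threshold of 0.05. The difference between fractions was a contrast of that fit, and the difference between lines a contrast of a fit of all 16 libraries. CPM values are TMM-scaled, except those of MALAT1 and the marker ranges, which use library totals. DESeq2 1.42.0 was an alternative. TMM assumes that most genes do not change, so levels are relative to the other RNA of a library.

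The members and the 46 gene lists were chosen with earlier results of these data known. Named genes are CDK6 and NXF1, the 12 highest and 12 lowest changes at 5 CPM or more, the 10 largest gains and losses in CPM, leading members of each list, the 6 highest and lowest differences between fractions and between lines, and the 5 highest and lowest long non-coding RNAs. Some genes that this rule picks are not reported here. Other list members were named after their values were seen.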

Additional observations from a re-analysis of the deposited data

Results flagged for a closer look

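Results below are differences between effects of siPANAD, each tested as the difference itself in edgeR with Benjamini-Hochberg adjustment. Between the HepG2 cytoplasm and the HepG2 nucleus 1730 genes differed, and between the HepG2 cytoplasm and the SNU-449 cytoplasm 3714 genes.

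Relative to the nucleus, the low cytoplasmic effects on the log2 scale were those of SHH (-2.19), ZFTA (-1.90), PRELID3A (-1.75), FGFR3 (-1.74) and MOB3C (-1.70), and CDK6 stood at -1.15. The highest were those of UBAP1L (2.18), RPL37P23 (2.14), SP2-DT (2.06), TGM1 (2.00), RBM7 (1.99) and RPS27P8 (1.98).

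Relative to SNU-449, the higher effects in HepG2 were those of SLCO2B1 (6.80), SYT7 (5.85), ERP27 (5.33), TUBA4B (5.17), CYGB (4.66), PDZK1IP1 (4.56) and, far smaller, CDK6 (0.77). The lower effects in HepG2 were those of FUT1 (-6.13), C5AR1 (-3.77), SH2D2A (-3.59), NPW (-3.33), PDGFRB (-3.31) and SBK3 (-3.31). Of these genes SLCO2B1, SYT7, ERP27, TUBA4B, FUT1, C5AR1, SH2D2A, NPW and PDGFRB were below 1 CPM in each SNU-449 cytoplasm library, so their size depends on the small value that the fit adds to counts near 0. The HepG2 call of SYT7 was lost without NC replicate 2 (adjusted p = 0.12), siPANAD replicate 1 (adjusted p = 0.11) or siPANAD replicate 2 (adjusted p = 0.062), and that of SH2D2A without NC replicate 1 (adjusted p = 0.15) or siPANAD replicate 2 (adjusted p = 0.14). SBK3 was at 6.97 and 5.92 CPM with siPANAD and 2.38 and 1.87 CPM in NC in SNU-449, and at 2.72 and 2.195 CPM with siPANAD, against 8.82 and 7.35 CPM in NC in HepG2.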

How the results depend on the processing

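Counts of genes and the named genes were recomputed with DESeq2, DESeq2's size factors in edgeR, library totals, no filter on low counts, a replicate block, and each library left out. The counts of the HepG2 cytoplasm stayed within 1.5 times under all of these, and no gene called in the main comparison was called in the opposite direction. With a log2 change of at least 1 also required, 3562 genes passed, 2020 higher and 1542 lower. Leaving out a cytoplasm library kept 75.6% to 88.2% of the calls, and DESeq2 kept 83.3%. For the cytoplasm minus nucleus effect, library totals gave 3057 genes, 392 higher and 2665 lower (12.8% higher, against 50.3% with TMM), with a median shift of -0.27. No filter gave 31.8% higher there. Leaving out single libraries gave 841 to 2346 genes, 414 to 1255 higher and 419 to 1217 lower. For HepG2 minus SNU-449, library totals gave 1217 higher and 2966 lower (29.1% higher, against 49.5%), with a median shift of -0.18. The cause of these moves was not tested. Of the 242 named genes called, 23 lost their call without siPANAD replicate 1, 18 without siPANAD replicate 2, 13 without NC replicate 2, 10 without NC replicate 1, 7 with DESeq2 and 8 on library totals, with the direction kept in each. Same-numbered siPANAD and NC libraries did not deviate together (correlation over 12003 genes of 0.0084 in the cytoplasm and -0.021 in the nucleus). Such a correlation cannot show whether same-numbered libraries were handled together. The pairing of cytoplasm and nucleus by replicate number was not tested. With the replicate block 8252 genes were called, 4092 higher and 4160 lower, 97.0% of the calls were kept, and 5 named genes lost theirs. Genes absent in 1 group have no measured fold change at this depth, and those of 1 to 3 counts in a library a wide one.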

Other observations

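Long non-coding RNAs moved in both directions. FAM111A-DT was at 12.2 and 12.1 CPM with siPANAD, against 0.868 and 1.495 CPM in NC (log2 fold change 3.27, SE 0.26; adjusted p = 9.7e-11), and LINC01132 at 14.2 and 12.1 CPM with siPANAD, against 1.37 and 1.45 CPM in NC (log2 fold change 3.203, SE 0.24; adjusted p = 4.7e-11). LINC01996 (2.86), SP2-DT (2.698) and ENSG00000260086 (2.396) were the next highest among those of at least 5 CPM. CASC19 was at 12.7 and 13.7 CPM with siPANAD, against 62.1 and 68.4 CPM in NC (log2 fold change -2.31, SE 0.15; adjusted p = 2.1e-12), and MIRLET7BHG, the host of let-7 miRNAs, at 2.16 and 2.35 CPM with siPANAD, against 11.7 and 8.81 CPM in NC (log2 fold change -2.17, SE 0.25; adjusted p = 8.9e-08). LINC02732 (-2.41) and ENSG00000236366 (-2.203) also fell, and ENSG00000277247 (-2.54) has 55.9% of its exonic bases opposite another gene.

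Of 421 tested ZNF zinc finger genes 72 rose and 95 fell (17.1% and 22.6%), against the 23.7% and 24.2% of all genes, and the rises numbered 43 without siPANAD replicate 1. Of 9 tested immune, blood and endothelial markers 4 rose and 3 fell. Their summed level over 8 fixed markers was 317 and 296 CPM with siPANAD and 367 and 516 CPM in NC, nearly all of it LYZ (303 and 283 CPM with siPANAD, 355 and 505 CPM in NC), while PTPRC, CD3E and CD68 were at or near 0. The 5 cholangiocyte markers summed to 514 and 560 CPM with siPANAD and 590 and 580 CPM in NC. Among 7 tested stellate and cholangiocyte markers 2 rose and 3 fell. Of the 2 stellate and fibroblast markers among them 1 rose and 1 fell. ACTA2, whose exonic overlap is not reported here, rose (1.108). On library totals it was at 36.7 and 34.2 CPM with siPANAD, against 18.7 and 16.9 CPM in NC. PDGFRB fell, at 1.599 and 1.72 CPM with siPANAD, against 19.9 and 14.99 CPM in NC (log2 fold change -3.37, SE 0.23, edgeR adjusted p = 9.0e-12).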
